A study of Homo sapiens with 6 samples.

Results

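The cell-surface heparan sulfate proteoglycans, 4 syndecans (SDC1 to SDC4) and 6 glypicans (GPC1 to GPC6), were followed on 6 single-colour Affymetrix arrays of the MDA-MB-231 line, which was established from a human breast cancer and has a basal type with mesenchymal features. Every probe set whose only gene symbol in the platform annotation is one of these 10 names was taken. This gave 18 of 54675 probe sets, 8 for syndecans and 10 for glypicans. Lentivirus had brought into the cells either GATA3, a transcription factor of luminal mammary cells, together with enhanced green fluorescent protein (GFP), or GFP alone, and both were sorted for GFP. There were 3 arrays labelled GATA3 and 3 GFP control arrays, all from RNA collected 2 days after seeding. Each group is thus a sorted pool of transduced cells of 1 line, and the promoter that drives the transgene is not given in the sources used here. Whether the triplicates came from separate cultures is not labelled, so p-values reflect only the spread among these arrays, and that spread may be technical.

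Syndecans cross the membrane and end in a short cytoplasmic tail that binds scaffold proteins, whereas glypicans are held in the outer leaflet by a lipid anchor. Both carry long heparan sulfate chains, whose sulfate pattern lets them bind growth factors, morphogens, chemokines and matrix proteins and present them to signalling receptors. SDC1 is the main syndecan of epithelia and of plasma cells, SDC2 is known from mesenchymal cells, SDC3 from the nervous system, and SDC4 is widespread and sits in focal adhesions. In breast tissue SDC1 and GPC1 have been studied as coreceptors for heparin-binding growth factors.

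Values are GCRMA expression values as deposited, read as log2, and the number of arrays limits their precision. A value of 4 was taken as the detection level, and probe sets with values over 4 on at least 3 of the 6 arrays were tested. The arrays labelled GATA3 were lower, not higher, in GATA3 itself, whose brightest probe set (209604_s_at) averaged 7.73 ± 0.35 on them and 9.39 ± 0.06 on the GFP control arrays (SD, n = 3 each; log2 change -1.66, adjusted p 0.00238). This goes against the label, and it is not known here whether that probe set reads the introduced sequence. All directions are given for the arrays labelled GATA3 and rest on the labels. LOX, the lysyl oxidase gene of the series title, fell by 5.80 on the log2 scale in its brightest probe set (215446_s_at). The mesenchymal markers VIM, CD44, AXL, CAV1 and MSN read 12.70 or more on all arrays, and among them VIM (-0.32, adjusted p 0.0158) and MSN (-0.24, adjusted p 0.0342) passed as lower in the arrays labelled GATA3. Their part in the family's changes was not tested. Of 4 luminal genes, PGR and FOXA1 lay at the lowest value of the table, 2.16, TFF1 read 3.20 to 3.74 and ESR1 4.02 to 4.45. ERBB2, which had been listed as low in this line, read 9.25 to 9.62. The 8 markers of blood, endothelial and fibroblast cells with a probe set of their own (PTPRC, CD3E, PECAM1, CDH5, VWF, DCN, COL1A2 and PDGFRA) read at most 2.42. GATA3 replicate 3 correlated with the other arrays labelled GATA3 at 0.984 and 0.986, against 0.997 between those, and its raw file alone carries a second date.

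The family split into members that were brighter in the arrays labelled GATA3, members with no passing difference, 1 member that was nearly lost, and members that were never detected. SDC1, SDC2 and GPC1 rose by 1.72-fold to 2.67-fold in the probe sets that passed, GPC6 fell to under the detection level, SDC3, SDC4 and GPC2 did not pass, and GPC3, GPC4 and GPC5 lay at 2.16 on every array. Of the 11 probe sets tested, 5 were higher and 1 lower at an adjusted p under 0.05 (limma, Benjamini-Hochberg over all tested probe sets). Over all 23785 tested probe sets, 25.3% passed in either direction, 11.3% higher and 14.0% lower. The groups did not overlap in 8 of the 11, beside 46.0% of all tested probe sets. The median log2 change of the 11 was 0.78, beside -0.05 over all tested probe sets. The 11 cover only 7 genes, with 3 probe sets of SDC2 and 2 each of SDC1 and GPC1. These counts and the median thus weigh such genes more than once. With the brightest tested probe set of each gene, SDC2 and GPC1 passed as higher and GPC6 as lower. SDC1 (0.29), SDC3, SDC4 and GPC2 did not pass in theirs. The members and the contrast had been seen before these counts were made, and the 7 probe sets that were not tested stand outside them. GPC6 is in the counts only because its control arrays were over the detection level. In bulk RNA, fewer cells that express a gene and less RNA per cell cannot be told apart.

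**Figure D1:**
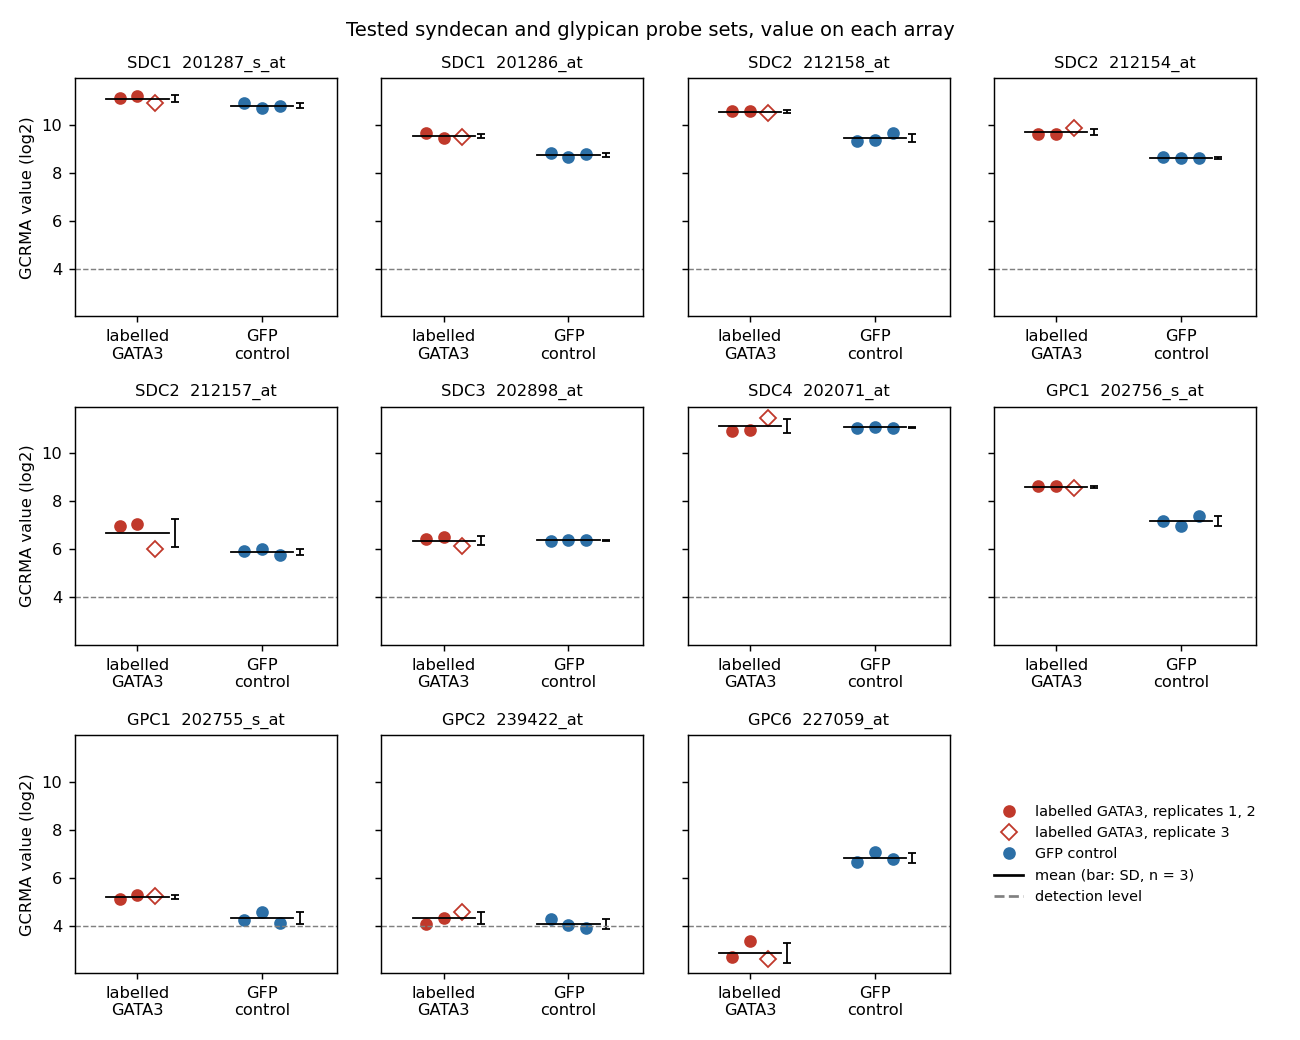
GCRMA value (log2, vertical axis) of each tested syndecan and glypican probe set on the 3 arrays labelled GATA3 and the 3 GFP control arrays, with the mean as a line and the SD as a bar (n = 3). The open diamond is GATA3 replicate 3 and the dashed line the detection level of 4; GPC6 alone lies under that level in the arrays labelled GATA3 and above it in the GFP control.

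SDC1, the epithelial syndecan, rose in the probe set 201286_at. It read 9.64, 9.47 and 9.50 on the arrays labelled GATA3, against 8.81, 8.67 and 8.79 on the GFP control arrays. The groups lay well apart, with a log2 change of 0.78 (SE 0.07), 1.72-fold higher, at an adjusted p of 0.00138. The brighter probe set 201287_s_at read 11.13, 11.22 and 10.92 on the arrays labelled GATA3, against 10.91, 10.69 and 10.81 on the GFP control arrays. Here the lowest array labelled GATA3 and the highest GFP control array nearly touched, and the log2 change of 0.29 (95% interval 0.05 to 0.53) did not pass, at an adjusted p of 0.0858. Without GATA3 replicate 3 that change was 0.38 and passed, at an adjusted p of 0.0274. The 95% intervals of the probe sets, 0.60 to 0.97 and 0.05 to 0.53, do not overlap, so the size of the change of SDC1 depends on which is read.

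SDC2, the mesenchymal syndecan, rose in both of its brighter probe sets. Probe set 212158_at read 10.58, 10.58 and 10.50 on the arrays labelled GATA3, against 9.35, 9.38 and 9.65 on the GFP control arrays, a log2 change of 1.09 (SE 0.09), 2.13-fold, at an adjusted p of 0.000981. Probe set 212154_at read 9.63, 9.61 and 9.85 on the arrays labelled GATA3, against 8.68, 8.60 and 8.61 on the GFP control arrays, a log2 change of 1.07 (SE 0.08), 2.10-fold, at an adjusted p of 0.000683. All arrays labelled GATA3 exceeded all GFP control arrays in both. The dimmest probe set, 212157_at, read 6.98, 7.06 and 6.03 on the arrays labelled GATA3, against 5.92, 6.0 and 5.77 on the GFP control arrays. GATA3 replicate 3 lay by the controls, and the log2 change of 0.79 (95% interval 0.07 to 1.52) did not pass, at an adjusted p of 0.105. Without that array it was 1.13, at an adjusted p of 0.00216, close to the other probe sets of SDC2.

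SDC3, the neural syndecan, and SDC4, the focal adhesion syndecan, gave no passing difference. SDC3 (202898_at) read 6.41, 6.50 and 6.14 on the arrays labelled GATA3, against 6.37, 6.39 and 6.39 on the GFP control arrays. The groups overlapped, with a log2 change of -0.03 (95% interval -0.30 to 0.24, adjusted p 0.853), which was 0.07 without GATA3 replicate 3. The other SDC3 probe set, 1554864_a_at, lay between 2.21 and 2.25 on all arrays and was not tested. SDC4 (202071_at) was bright, at 10.94, 10.98 and 11.49 on the arrays labelled GATA3, against 11.07, 11.11 and 11.06 on the GFP control arrays. GATA3 replicate 3 was the highest of all arrays for SDC4 and the 2 other arrays labelled GATA3 were the lowest. The log2 change was 0.06 (95% interval -0.32 to 0.43, adjusted p 0.801), and -0.12 without GATA3 replicate 3 (adjusted p 0.0566). The intervals, not the p-values, give the range of change that these arrays allow for both genes.

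GPC1, a widely expressed glypican that binds fibroblast growth factors, rose in both of its probe sets, 1 of them above and 1 below the passing changes of SDC2. Probe set 202756_s_at read 8.62, 8.63 and 8.55 on the arrays labelled GATA3, against 7.17, 6.99 and 7.40 on the GFP control arrays, a log2 change of 1.41 (SE 0.12), 2.67-fold, at an adjusted p of 0.000882. The dimmer probe set 202755_s_at read 5.13, 5.28 and 5.23 on the arrays labelled GATA3, against 4.26, 4.59 and 4.12 on the GFP control arrays, a log2 change of 0.89 (SE 0.13), 1.85-fold, at an adjusted p of 0.00712. The groups did not overlap in either, and the arrays labelled GATA3 lay closer together than the controls. The suffix _s marks both as probe sets that can match more than 1 transcript.

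GPC6, a glypican needed for the growth of long bones, was the only member that fell. Probe set 227059_at read 2.69, 3.35 and 2.60 on the arrays labelled GATA3, against 6.65, 7.07 and 6.77 on the GFP control arrays. None of the 3 arrays labelled GATA3 reached the detection level, and all controls were above it. The fitted log2 change was -3.95 (SE 0.23, adjusted p 0.000245), and against the detection level GPC6 was at least 7.11-fold lower. This probe set entered the test through the controls alone, so its adjusted p is not separate support for the fall. The SE rests in part on background values. A fall of at least 2-fold that passed was seen in 3.43% of all tested probe sets. The other GPC6 probe set, 223730_at, was never over 4 and read 2.18, 2.21 and 2.24 on the arrays labelled GATA3, against 2.24, 3.12 and 3.00 on the GFP control arrays.

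The remaining glypicans were at or near background. GPC2, known from the developing nervous system, lay by the detection level. Its probe set 239422_at read 4.06, 4.32 and 4.57 on the arrays labelled GATA3, against 4.30, 4.03 and 3.92 on the GFP control arrays, a log2 change of 0.23 (95% interval -0.17 to 0.64, adjusted p 0.336). The groups overlapped, and expression of GPC2 was not shown, since a GCRMA value just over 4 can be background. GPC3, an oncofetal glypican of the liver, and GPC4 were listed at 2.16 on all 6 arrays by both of their probe sets, as was GPC5 by its single probe set. GPC5 is the neighbour of GPC6 and GPC4 that of GPC3, with 0 other protein-coding genes starting between them in the RefSeq annotation (GRCh38.p14). The fall of GPC6 thus stood beside a neighbour that was not detected in either group.

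**Figure D2:**
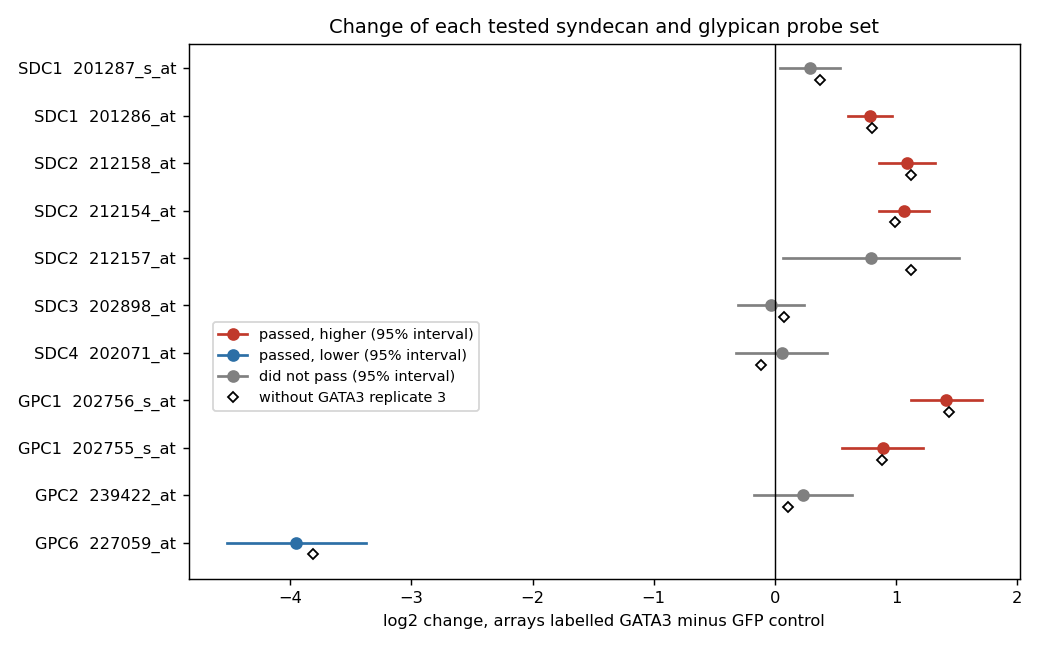
Log2 change of each tested syndecan and glypican probe set (horizontal axis, arrays labelled GATA3 minus GFP control) with its 95% interval, coloured by whether it passed at an adjusted p under 0.05. Open diamonds are the changes without GATA3 replicate 3; the probe sets of GPC1, SDC2 and SDC1 lie to the right of 0, with 201287_s_at of SDC1 and 212157_at of SDC2 not passing, and GPC6 lies far to the left, where its fitted change rests on values under the detection level in the arrays labelled GATA3.

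The start-site windows of the members that changed are shown to set their base composition and motif content side by side. RefSeq windows (GRCh38.p14), from 250 bases before to 50 bases after each annotated start, were matched for 8 of the 10 members, with 9 entries, as SDC1 has 2 starts. The chromosome that carries SDC2 was left out by choice when member windows were picked, so SDC2, which rose, is not in this comparison. No window of GPC3 was among these entries either. Whether the annotation itself holds windows for SDC2 and GPC3 is not shown here. Both strands were searched for GATA sites (the hexamer AGATAA, the hexamer AGATAG, the hexamer TGATAA or the hexamer TGATAG), for the E-box CACCTG, a sequence bound by repressors of the ZEB and SNAI families, and for the GC box GGGCGG. Matches are in capitals, and neighbouring GC boxes in GPC1 share a base.
GPC6, chr13:93226557-93226856, plus strand: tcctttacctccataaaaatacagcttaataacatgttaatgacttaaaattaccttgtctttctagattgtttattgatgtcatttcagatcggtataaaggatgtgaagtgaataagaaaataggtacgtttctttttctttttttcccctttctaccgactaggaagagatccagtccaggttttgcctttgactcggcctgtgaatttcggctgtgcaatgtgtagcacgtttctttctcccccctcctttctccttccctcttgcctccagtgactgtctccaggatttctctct
GPC1, chr2:240435413-240435712, plus strand: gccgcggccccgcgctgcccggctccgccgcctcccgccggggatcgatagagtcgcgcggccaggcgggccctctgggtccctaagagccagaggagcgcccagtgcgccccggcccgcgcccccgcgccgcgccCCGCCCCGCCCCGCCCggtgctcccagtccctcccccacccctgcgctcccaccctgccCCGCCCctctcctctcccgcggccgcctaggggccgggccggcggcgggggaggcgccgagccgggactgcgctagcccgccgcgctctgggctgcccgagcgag
SDC1, chr2:20225426-20225725, minus strand: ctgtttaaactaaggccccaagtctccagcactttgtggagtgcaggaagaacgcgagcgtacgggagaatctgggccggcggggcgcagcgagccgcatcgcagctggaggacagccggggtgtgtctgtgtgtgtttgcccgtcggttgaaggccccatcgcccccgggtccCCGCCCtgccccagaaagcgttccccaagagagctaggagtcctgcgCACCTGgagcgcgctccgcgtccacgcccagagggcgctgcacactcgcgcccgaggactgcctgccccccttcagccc
SDC1, chr2:20225081-20225380, minus strand: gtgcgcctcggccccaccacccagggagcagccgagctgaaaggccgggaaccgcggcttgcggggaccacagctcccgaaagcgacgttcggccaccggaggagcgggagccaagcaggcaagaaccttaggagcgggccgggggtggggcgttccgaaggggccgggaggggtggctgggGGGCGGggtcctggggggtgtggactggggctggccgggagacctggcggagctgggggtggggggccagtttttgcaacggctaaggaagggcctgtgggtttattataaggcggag

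No GATA site was found in these 4 windows. Among all 9 entries only that of GPC5 held one, beside 25.0% of the 35116 windows in the table. An E-box was found in 1 SDC1 window, at bases 222 to 227 counted from its 5′ end, and in that of SDC3, beside 20.6% of all windows. GC boxes were present in all entries except GPC6, from 1 in each SDC1 window to 8 in SDC4, beside 45.0% of all windows. GPC6 had 40% G and C, the lowest of the 9, against 65% to 84% in the 8 others. The median over all windows was 58.7%, and 11.8% of windows had 40% or less. These matches describe letters in 300-base windows and show nothing about binding.

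By Euclidean distance over the 6 arrays between values centred on their own mean, the genes most like GPC1 (202756_s_at) were SLC22A5, MCAM, KLHL29 and EIF5A2, at distances of 0.18, 0.20, 0.21 and 0.26 on the log2 scale. SLC22A5 encodes the carnitine transporter and MCAM a cell adhesion molecule of the immunoglobulin superfamily. Their log2 changes were 1.33, 1.38, 1.41 and 1.56, beside 1.41 for GPC1. The genes most like GPC6 (227059_at) were CAMK1D, KHDRBS3, CARD8 and IRX5, at distances of 0.56, 0.64, 0.66 and 0.80. CAMK1D encodes a calcium-dependent kinase, KHDRBS3 an RNA-binding protein and IRX5 a homeobox transcription factor. GPC6, KHDRBS3 and IRX5 were under the detection level in all arrays labelled GATA3, where values have no order, so these distances rest in part on background. KHDRBS3 was at least 11.3-fold and IRX5 at least 5.47-fold lower. With 2 groups this likeness is mainly a likeness of the difference between them.

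**Figure D3:**
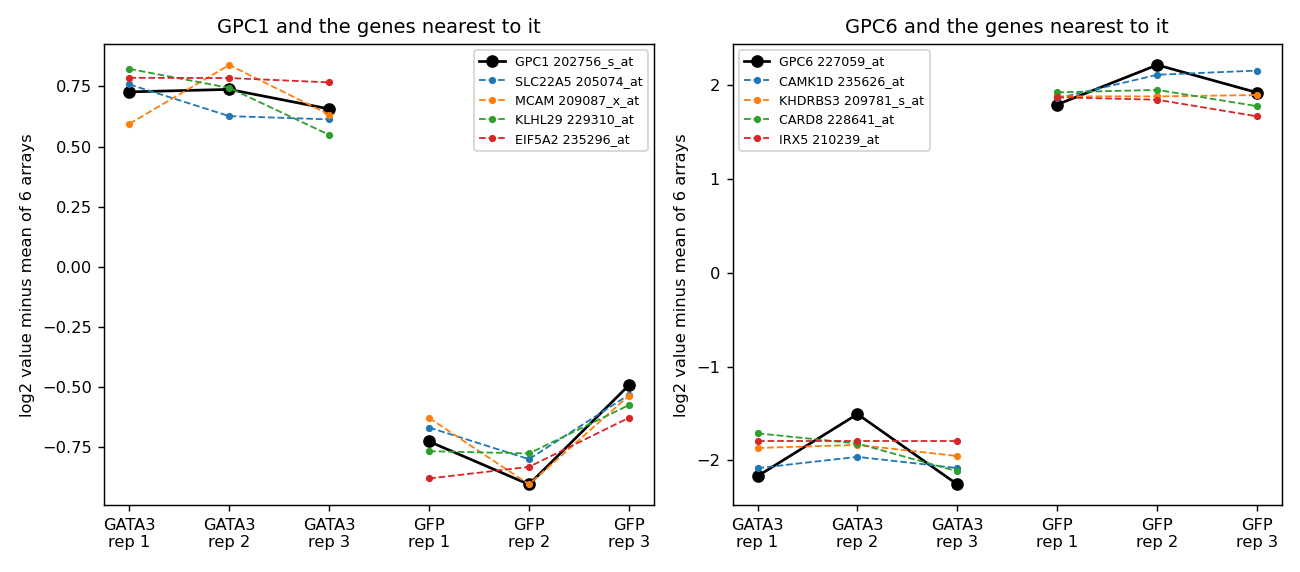
Values of GPC1 (left) and GPC6 (right) on each array, on the log2 scale and centred on the mean of the 6 arrays (vertical axis), with the 4 genes nearest to each by Euclidean distance. Lines join arrays of 1 group only and carry no order; the nearest genes differ from GPC6 by up to 0.80 and from GPC1 by up to 0.26 in distance.

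Heparan sulfate chains are built on these core proteins by a chain of enzymes, of which most gave no passing difference. Of 37 listed, 21 were tested, 2 rose, 4 fell and 15 did not pass, with a median log2 change of 0.07 beside -0.02 over all tested genes. Over all 10814 tested genes 29.3% passed, 14.8% higher and 14.5% lower. The 6 of 21 that passed stand beside that share. The genes that rose, HS3ST1 and HS3ST3B1, encode sulfotransferases. HS3ST1 (205466_s_at) averaged 10.36 ± 0.24 on the arrays labelled GATA3 and 9.43 ± 0.09 on the GFP control arrays (SD, n = 3 each), 1.90-fold higher (adjusted p 0.00585), while its dimmer probe set did not pass (log2 change 0.35). HS3ST3B1 (227361_at) averaged 11.81 ± 0.03 on the arrays labelled GATA3 and 10.98 ± 0.04 on the GFP control arrays (SD, n = 3 each), 1.78-fold higher, and its second probe set rose by the same 0.84.

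PAPSS2, UGDH, EXT1 and NDST1 fell. PAPSS2, which makes the sulfate donor, fell 1.80-fold, with log2 changes of -0.85 in its brightest probe set and of -1.09 and -0.96 in the others. UGDH, which makes the glucuronic acid donor, fell 1.42-fold. EXT1, a subunit of the polymerase that extends the chain, fell with a log2 change of -0.43 in its brightest probe set and of -1.63 and -1.20 in its dimmer ones. With no filter on low values the brightest did not pass (adjusted p 0.0515). NDST1, which starts sulfation of the chain, fell by 0.49, though its 2 dimmer probe sets did not pass (0.13 and -0.12). The other polymerase subunit EXT2 (0.12), the epimerase GLCE (-0.14), the sulfotransferases HS2ST1 (0.12) and HS6ST1 (-0.25) and the heparan sulfate-cleaving heparanase HPSE (0.03) did not pass in their brightest probe sets. The other probe set of EXT2 (202013_s_at) passed as higher (0.28, adjusted p 0.0444). FAM20B, a kinase that acts on the linkage region of the chain, did not pass in its brightest probe set (0.07) and passed as higher in the other (202916_s_at, 0.59, adjusted p 0.00549). The sulfatases SULF1 and SULF2, which edit chains on the cell surface, were not over the detection level on enough arrays to be tested. Without GATA3 replicate 3 the number that rose was 4, with B4GALT7 (0.42, adjusted p 0.0345) and PAPSS1 (0.36, adjusted p 0.0175) added, and the number that fell was 5, with UXS1 (-0.24, adjusted p 0.0455) added.

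Genes that cut the proteoglycans from the surface or bind syndecan tails went both ways. Of 22 listed, 15 were tested, 3 rose, 4 fell and 8 did not pass, beside 14.8% higher and 14.5% lower over all tested genes, with a median of -0.12. MMP14, a membrane-bound metalloproteinase that cleaves SDC1, read 7.48, 8.07 and 7.31 on the arrays labelled GATA3, against 9.00, 9.54 and 8.96 on the GFP control arrays (202827_s_at). It was 2.92-fold lower (adjusted p 0.00966), and its 3 other probe sets fell as well, with log2 changes of -1.23 to -0.89. With no filter on low values the call of 202827_s_at ended (adjusted p 0.05 after rounding). The sheddases ADAM10 (-0.12) and ADAM17 (-0.12) did not pass. TIAM1, an exchange factor for RAC that binds syndecan tails, fell by 1.15 (213135_at), while its dimmer probe set, near the detection level, changed by 0.12. PRKCA, the kinase that binds SDC4, fell by 0.44, and had passing log2 changes of -0.56 and -0.39 in other probe sets. Its probe set 1560074_at did not pass (adjusted p 0.982).

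FURIN, a proprotein convertase of a family that processes glypicans, rose 1.69-fold (adjusted p 0.0126). The scaffold genes CASK (0.23) and SDCBP (0.15), whose products bind the end of the syndecan tail, rose by little, and the 3 other probe sets of CASK did not pass. DNM2, a dynamin of endocytosis, fell by 0.40 in 202253_s_at, but its other probe set did not pass (1555895_at, 0.94). That probe set read 6.70, 6.57 and 9.12 on the arrays labelled GATA3, against 6.74, 6.43 and 6.39 on the GFP control arrays, so GATA3 replicate 3 alone lay apart. The count that rose was 1 without GATA3 replicates 1 or 2 or GFP control replicates 1 or 3, and 0 without GFP control replicate 2 (limma; 3 at an unadjusted p under 0.05). CASK lost its call without any 1 of these 5 arrays, with adjusted p-values of 0.0637 to 0.119. SDCBP lost it without GATA3 replicates 1, 2 or 3 or GFP control replicates 1 or 2 (0.0589 to 0.149). FURIN lost it without GFP control replicates 2 or 3 (0.0507 and 0.055) and with no filter on low values (0.0553), and DNM2 without GFP control replicate 2 (0.0538).

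Among other proteoglycans that can carry heparan sulfate, SRGN and AGRN rose and HSPG2 fell. Of 11 listed, 8 were tested and 5 did not pass, so 3 of 8 passed, a share near the 29.3% of all tested genes, with a median of -0.02. SRGN, serglycin, the intracellular proteoglycan of secretory granules, read 13.34, 13.50 and 13.43 on the arrays labelled GATA3, against 11.66, 11.58 and 11.84 on the GFP control arrays, 3.32-fold higher (201859_at, adjusted p 0.000113), and rose by 2.78 in its other probe set. AGRN, the basement membrane proteoglycan agrin, read 10.85, 10.77 and 10.76 on the arrays labelled GATA3, against 9.96, 9.94 and 9.88 on the GFP control arrays, 1.83-fold higher (adjusted p 0.000189). All arrays labelled GATA3 exceeded the controls in both. HSPG2, perlecan, fell by 0.30, a call that was lost without GATA3 replicate 2 or any 1 GFP control array (adjusted p 0.0677 to 0.0699). CD44 (-0.07), NRP1 (-0.25), COL18A1 (-0.03) and TGFBR3 (0.32) did not pass in their brightest probe sets. Of the 11 other tested probe sets of CD44, 1565868_at passed as lower (-1.78, adjusted p 0.0324) and the rest did not pass. Without GATA3 replicate 3, TGFBR3 (0.44) rose and NRP1 (-0.33) fell, which made 2 lower. SMOC1 is counted among the 8 tested, although it is not established as a carrier of heparan sulfate. It repeated 4.04 on every array, which can be background.

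Ligands that bind heparan sulfate moved in opposite directions. Of 25 listed, 11 were tested, 3 rose, 4 fell and 4 did not pass, beside 14.8% higher and 14.5% lower over all tested genes, with a median of 0.12. With all probe sets of a gene averaged, 5 were higher. HBEGF, a heparin-binding ligand of the EGF receptor, read 12.18, 12.14 and 12.23 on the arrays labelled GATA3, against 11.12, 11.04 and 11.10 on the GFP control arrays, 2.14-fold higher (203821_at, adjusted p 5.44e-05). MDK, the growth factor midkine, which binds syndecans, rose 1.85-fold (209035_at). Its relative PTN, pleiotrophin, was under the detection level on all arrays labelled GATA3 and at least 1.45-fold lower. IHH, a hedgehog ligand, was under that level in the GFP control and at least 2.39-fold higher (adjusted p 0.00975, and 0.0525 with no filter on low values). PTN and IHH each entered the test through the arrays of 1 group alone.

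Of the matrix and angiogenic ligands, TNC, VEGFA and FN1 fell in their brightest probe sets, while most probe sets of THBS1 were higher. TNC, tenascin-C, read 5.76, 5.17 and 5.76 on the arrays labelled GATA3, against 8.38, 8.46 and 8.66 on the GFP control arrays, 7.67-fold lower. VEGFA fell by 0.62 (210512_s_at), and its 3 other tested probe sets had passing log2 changes of -0.86 to -0.57. FN1, fibronectin, whose heparin-binding domain engages SDC4, fell by 0.48 in its brightest probe set, and 3 of its 4 other probe sets passed. The brightest probe sets of THBS1 (0.26), BMP4 (0.12), PDGFA (0.03) and CXCL8 (0.38) did not pass. For THBS1, thrombospondin-1, all 6 other tested probe sets passed as higher, with log2 changes of 0.45 to 2.06 (adjusted p 0.00094 to 0.00836). The other probe set of the chemokine CXCL8 (211506_s_at) passed as higher too (1.07, adjusted p 0.00736). FGF2, FGF1, CXCL12 and HGF were not over the detection level on enough arrays to be tested.

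**Figure D4:**
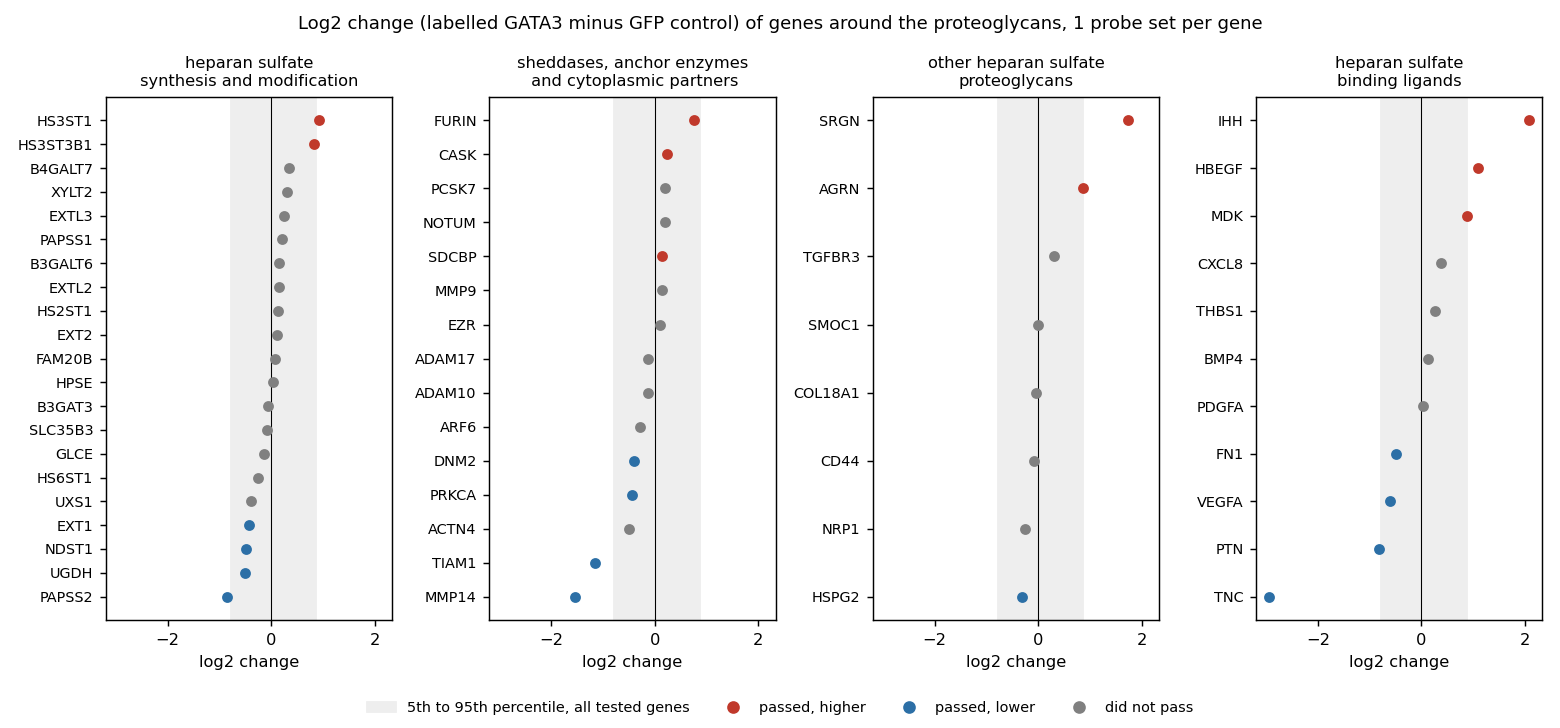
Log2 change (horizontal axis, arrays labelled GATA3 minus GFP control) of each tested gene in 4 lists around the proteoglycans, 1 probe set per gene, coloured by whether it passed at an adjusted p under 0.05. The grey band holds the 5th to 95th percentile of all tested genes, -0.78 to 0.87. Most enzymes of heparan sulfate synthesis lie within it, with HS3ST1 (0.93) and PAPSS2 (-0.85) outside. Of the genes outside, TNC (-2.94), MMP14 (-1.55), IHH (2.09) and SRGN (1.73) changed most, and TIAM1, HBEGF, MDK and PTN lie outside too.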

How the data were processed

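Expression was measured in MDA-MB-231 cells on 6 arrays. The deposited values, taken as log2, were made by the authors with GCRMA, per the submitters' processing notes. Its version is not given in the sources used here. The log2 scale is not stated and was read from their range, with a shared lowest value of 2.16. Values were used as deposited. The 62 control probe sets were left out. Probe sets over 4 on at least 3 of 6 arrays were tested, which left 23785. Symbols came from the platform annotation. A listed gene was represented by its brightest tested probe set.

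The 3 arrays labelled GATA3 and the 3 GFP control arrays entered 1 fit in limma 3.58.1 (R 4.3.3) (lmFit, eBayes with intensity trend, no covariates), adjusted by Benjamini-Hochberg over all tested probe sets, threshold 0.05. Where all arrays of a group lay at or under 4, the fold is a lower bound against 4. The fit was tested on simulated data. Members, lists and tests were chosen with earlier results of these data known. Of each list, up to 6 genes past the threshold with the largest change were named by rule. SDCBP, FN1 and genes that did not pass or were not tested were chosen for naming with their values known. Alternatives covered normalization, filters, trend, array weights, blocks, probe set choice and leaving out each array.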

Additional observations from a re-analysis of the deposited data

How the results depend on the processing

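All calls of SDC1 (201286_at), SDC2 (212158_at and 212154_at), GPC1 and GPC6 held under every alternative that tested them. The change of GPC1 (202756_s_at) ranged from 1.32 to 1.52. The other probe set of SDC1 passed under 6 of 15 alternatives, the dimmest of SDC2 under 5 of 16. Both counts hold the date set as a block and the fit without GATA3 replicate 3. These gave the same change, as that array alone carries the second date, and are not separate support. SDC3 changed sign with quantile normalization (0.029), median centring (0.047), array weights (0.11), the date set as a block or without GATA3 replicate 3 (0.073 in both; -0.10 to 0.073 with any 1 array left out), and SDC4 with array weights (-0.10), the date block or without GATA3 replicate 3 (-0.12 in both; -0.12 to 0.15 with any 1 array left out), the cause not tested. With 1 array left out, the probe sets that rose numbered 1796 to 3581 and those that fell 1801 to 3752. The genes of heparan sulfate synthesis that rose numbered 2 to 4, of sheddases and partners 0 to 2, and other proteoglycans that fell 0 to 2. Array weights, whose estimate did not converge, gave 5195 higher and 6642 lower probe sets, 6 higher synthesis genes, 2 lower other proteoglycans and 5 higher ligands. The suffix _at alone gave 1494 and 1867, with 3 higher family probe sets, 1 higher synthesis gene, 1 higher sheddase or partner, 1 higher and 0 lower other proteoglycans and 1 lower ligand, from fewer probe sets tested. Without a filter 1767 were lower and 0 sheddases or partners higher (limma; 3 at an unadjusted p under 0.05), and without the trend 1. Median centring gave 4 higher synthesis genes and 0 lower other proteoglycans, the date block 4 and 2, and the mean of a gene's probe sets 2 lower other proteoglycans and 5 higher ligands. At an unadjusted p under 0.05, limma called 1 lower other proteoglycan with median centring and 1 with the suffix _at alone. The scalings moved the median of all probe sets by at most 0.08. The replicate numbers did not pair the arrays (correlation of deviations -0.135, 0.159 and -0.109). With the replicate block 2106 probe sets were lower and 0 other proteoglycans (2 at an unadjusted p under 0.05), and the family's counts stayed at 5 higher and 1 lower.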
